A study of Mus musculus with 6 samples.

Results

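The genes of glycolysis and of the response to low oxygen were followed in macrophages from mammary glands of mice that develop mammary tumours. The set holds 37 of the 43432 genes in the deposited table, each found by its symbol. It has 2 blocks: 24 genes of glucose uptake, the glycolytic enzymes and lactate export, and 13 other genes of oxygen sensing and hypoxia. All mice were females of the FVB/N strain and carried MMTV-PyMT, a transgene in which a mouse mammary tumour virus promoter, active mainly in mammary epithelium, drives the polyomavirus middle T oncogene. There were 3 libraries at 11 weeks and 3 at 8 weeks of age, with no other treatment named. Whole digested glands were sorted for live cells with CD45 (found on leukocytes), MHC class II and CD14 (a lipopolysaccharide co-receptor of myeloid cells) on their surface, and the labels call the sorted cells tumour-associated macrophages. No mice without the transgene are among the samples, so both ages carry the oncogene. Samples of an age are titled an1, an2 and an3, an abbreviation that the labels do not spell out. If these are not separate animals, the p-values reflect the spread between numbered samples, part of which may be technical.

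Glycolysis splits glucose into pyruvate in the cytosol, and lactate dehydrogenase can turn the pyruvate into lactate, which leaves the cell through monocarboxylate transporters. When oxygen is scarce, the prolyl hydroxylases that mark the alpha subunits of hypoxia-inducible factor (HIF) for destruction slow down, and HIF switches on glucose transporter, glycolytic enzyme and adaptation genes through sites with the core letters RCGTG in their promoters, where R is A or G. Macrophages are known for high glycolytic flux when activated by inflammatory signals, and tumour regions poor in oxygen often hold many of them.

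None of the 37 genes passed the test over all genes. Most glycolysis genes had somewhat higher means at 11 weeks, and Aldoc, the brain-type aldolase, had the smallest p of the set. Values are normalized counts, the authors' read counts divided by 1 size factor per library. A fold change is a difference of mean log2(normalized count + 1), 11 weeks minus 8 weeks, and the test is limma's across all genes with Benjamini-Hochberg adjustment at 0.05.

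Promoter windows are shown first, since HIF sites are what the block's name points to. For 34 of the 37 genes a window of 300 bases, from 250 before to 50 after a RefSeq transcript start, was found in build GRCm38.p6, and Epas1, Bnip3l and Ndrg1 had no entry. Windows were searched on both strands for ACGTG and GCGTG, which read CACGT and CACGC on the other strand. The letters CACGTG hold the first motif on both strands and count as 2 sites. A choice of 6 windows is given in full. They belong to Aldoc (an aldolase), Pgk1 (a kinase), Ldha (a lactate dehydrogenase), Slc16a1 (a lactate transporter), P4ha1 and P4ha2 (collagen prolyl hydroxylases). Each is written 5′ to 3′ on the gene's strand, which is the plus strand for all 6, with the motif letters in capitals.
Aldoc: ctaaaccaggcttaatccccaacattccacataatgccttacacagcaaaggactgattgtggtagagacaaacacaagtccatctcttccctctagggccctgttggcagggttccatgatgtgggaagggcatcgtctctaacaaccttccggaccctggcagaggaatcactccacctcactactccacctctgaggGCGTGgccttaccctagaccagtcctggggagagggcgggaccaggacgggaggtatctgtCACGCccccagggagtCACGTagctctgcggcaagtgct
Pgk1: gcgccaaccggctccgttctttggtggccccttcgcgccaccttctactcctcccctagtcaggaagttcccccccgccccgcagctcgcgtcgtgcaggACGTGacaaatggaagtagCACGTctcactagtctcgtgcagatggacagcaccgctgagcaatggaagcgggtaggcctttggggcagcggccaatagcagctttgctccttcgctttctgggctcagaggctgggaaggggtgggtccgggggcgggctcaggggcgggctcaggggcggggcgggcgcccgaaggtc
Ldha: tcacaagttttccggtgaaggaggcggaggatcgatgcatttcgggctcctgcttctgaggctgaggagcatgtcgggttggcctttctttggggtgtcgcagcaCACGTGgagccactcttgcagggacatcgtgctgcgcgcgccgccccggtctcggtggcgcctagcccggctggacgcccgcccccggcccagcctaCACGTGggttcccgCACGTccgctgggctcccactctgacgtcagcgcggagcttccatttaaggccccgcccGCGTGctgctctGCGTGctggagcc
Slc16a1: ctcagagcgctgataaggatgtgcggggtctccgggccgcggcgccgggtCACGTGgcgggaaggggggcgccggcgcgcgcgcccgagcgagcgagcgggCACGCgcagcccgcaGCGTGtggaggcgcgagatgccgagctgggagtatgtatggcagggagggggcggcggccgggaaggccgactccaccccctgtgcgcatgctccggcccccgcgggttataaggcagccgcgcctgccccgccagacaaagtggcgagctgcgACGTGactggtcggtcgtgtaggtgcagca
P4ha1: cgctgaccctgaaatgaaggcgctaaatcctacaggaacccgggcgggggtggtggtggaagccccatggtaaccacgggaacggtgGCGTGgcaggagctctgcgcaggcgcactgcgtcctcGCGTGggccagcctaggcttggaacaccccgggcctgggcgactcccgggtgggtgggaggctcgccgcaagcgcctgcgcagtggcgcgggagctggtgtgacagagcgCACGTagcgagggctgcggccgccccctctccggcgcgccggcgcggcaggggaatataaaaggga
P4ha2: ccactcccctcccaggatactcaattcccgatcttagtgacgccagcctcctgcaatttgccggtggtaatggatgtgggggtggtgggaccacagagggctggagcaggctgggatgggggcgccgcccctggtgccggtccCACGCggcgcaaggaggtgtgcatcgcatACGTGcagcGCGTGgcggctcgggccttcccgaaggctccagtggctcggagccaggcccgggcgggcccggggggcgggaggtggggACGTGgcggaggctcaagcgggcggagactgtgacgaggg
These windows lie at chr11:78322823-78323122 (Aldoc), chrX:106186850-106187149 (Pgk1), chr7:46845554-46845853 (Ldha), chr3:104638414-104638713 (Slc16a1), chr10:59323046-59323345 (P4ha1) and chr11:54100674-54100973 (P4ha2). The Ldha window holds 7 sites, the most of the 6, the Slc16a1 window 5, the P4ha2 window 4, the P4ha1 and Aldoc windows 3 each and the Pgk1 window 2. Aldoc and Ldha each have a further RefSeq window, with 1 and 2 sites. The choice of the 6 does not follow the differences between the ages. The libraries of the ages overlapped for Ldha, while Aldoa, Pkm, Ldhb and Egln3 did not overlap and are not among the 6. Their windows hold 0, 1 and 1 sites for Aldoa, 0 and 2 for Pkm, and 1 each for Ldhb and Egln3.

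Over the set, ACGTG stood in 18 of 37 glycolysis windows (48.6%) and in 10 of 12 hypoxia windows (83.3%), against 19.6% of all 32851 windows. The 37 windows belong to 24 genes, the 12 to 10 genes and the 32851 to 27025 genes. Windows of a gene can overlap, so a site can count more than once, as for Aldoa. For either motif the shares were 78.4% and 91.7%, against 43.8% of all windows. The motifs contain a CG pair, and the set's windows were richer in CG pairs, with means of 17.8 and 27.7 per window against 12.4 over all, so the shares are given as a description with no test. Genes with the letters went both ways: Slc16a1, with 5 sites, was lower in every 11-week library than in any 8-week one, and Aldoc, with 3, was higher in every one. A match describes letters and does not show that HIF binds there.

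The libraries held between 53596269 and 63719684 reads at 11 weeks and between 38784434 and 75004876 at 8 weeks. Mitochondrial ribosomal RNA took 44.2% to 48.6% of them at 11 weeks and 35.2% to 51.8% at 8 weeks. Of 21675 genes tested, limma called 11, which is 0.0507% (8 higher and 3 lower at 11 weeks). All 10 macrophage markers had reads in every library, and their summed level was 806000 to 903500 normalized counts at 11 weeks and 750000 to 948900 at 8 weeks. The sum hides differing members, of which 7 of 10 were above 0 in log2 fold change. Without overlap, 3 were higher and 1 lower at 11 weeks, against 6.81% and 5.12% of all genes. The summed levels of mammary epithelium, neutrophil, fibroblast, endothelium and T cell markers were higher in every 11-week library than in any 8-week one. Those of mammary epithelium summed to 26250 to 50670 normalized counts at 11 weeks and 9288 to 12710 at 8 weeks, with 12 of 13 above 0 in log2 fold change and 5 not overlapping. The 11 neutrophil markers summed to 3467 to 4096 at 11 weeks and 504.8 to 1324 at 8 weeks, with Elane at 0 throughout, and the 6 fibroblast markers summed to 1290 to 3023 at 11 weeks and 585.1 to 1050 at 8 weeks. Endothelium markers summed to 535.3 to 1078 at 11 weeks and 225.4 to 379.8 at 8 weeks. T cell markers summed to 207.0 to 508.1 at 11 weeks and 82.8 to 185.6 at 8 weeks. Only 5 of 11 neutrophil, 2 of 5 endothelium and 2 of 4 T cell markers had reads in every library. Without overlap, 4 of 11 neutrophil, 2 of 6 fibroblast, 1 of 5 endothelium and 1 of 4 T cell markers were higher at 11 weeks, and none lower. B cell markers overlapped, at 5.0 to 406.1 at 11 weeks and 25.6 to 289.8 at 8 weeks. The part of these cells in the differences below was not tested. In bulk RNA, fewer cells of a type and less RNA per cell cannot be told apart.

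In the glycolysis block all 24 genes were tested, at mean levels of 112.9 to 14530 normalized counts over the 6 libraries. Of them 19 had a positive log2 fold change, against 52.8% of all genes tested, and the block's median was 0.30, against 0.05 over all genes. None of the 24 passed limma's adjusted p, and the smallest was 0.356. An unadjusted p under 0.05 was found for 3 of the 24, all higher at 11 weeks, against 8.03% of all genes. The libraries of the 2 ages did not overlap for 6, of which Aldoa, Aldoc, Pgk1, Pkm and Ldhb were higher at 11 weeks and Slc16a1 lower. Over all genes, 6.81% did not overlap with 11 weeks higher and 5.12% with 11 weeks lower.

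The hypoxia block leaned less to one side by direction and median. All 13 genes were tested, 8 had a positive log2 fold change, against 52.8% of all genes, and the median was 0.08. None passed, with a smallest limma adjusted p of 0.584. P4ha1 and P4ha2 had an unadjusted p under 0.05, against 8.03% of all genes. Those 2, Ndrg1 and Egln3 did not overlap between the ages and were higher at 11 weeks. No gene of the block was lower without overlap. Over all genes the shares were 6.81% with 11 weeks higher and 5.12% with 11 weeks lower.

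**Figure D1:**
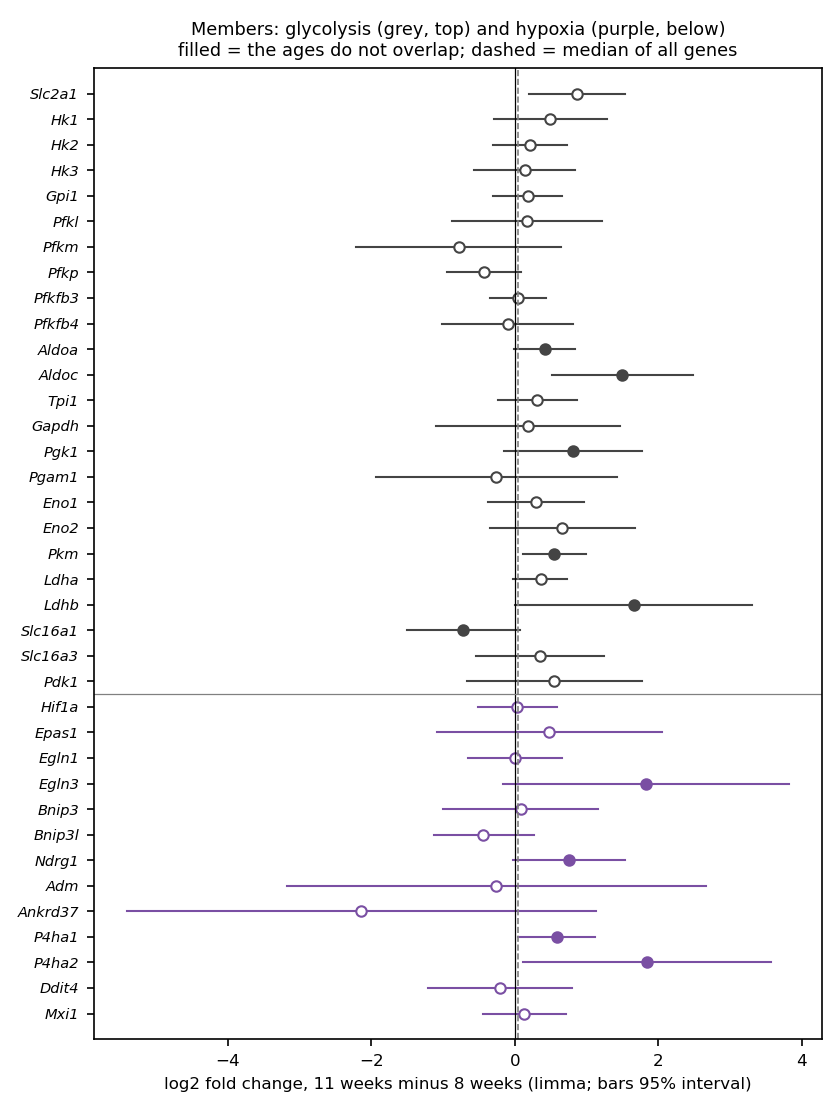
The x axis gives the log2 fold change of each gene, 11 weeks minus 8 weeks, with its 95% interval from limma, and the y axis lists the 24 glycolysis genes above the 13 hypoxia genes. Filled points mark the 10 genes whose ages do not overlap, and 19 of the 24 glycolysis points lie right of 0.

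The libraries did not divide cleanly by age. The median deviation of the 24 glycolysis genes from their own 6-library mean was 0.10, 0.30 and 0.20 on the log2 scale in 11-week replicates 1, 2 and 3, against -0.29, 0.19 and -0.24 in 8-week replicates 1, 2 and 3. For the hypoxia genes it was 0.22, 0.53 and -0.26 at 11 weeks, against -0.30, 0.30 and -0.21 at 8 weeks. 8-week replicate 2 thus stood among the 11-week libraries for both blocks, and 11-week replicate 3 among the 8-week libraries for the hypoxia block. The summed glycolysis level was 65155.3, 70123.5 and 66262.4 normalized counts at 11 weeks, against 49932.6, 67134 and 51403 at 8 weeks. 8-week replicate 2 was the highest of its age for 18 of the 24 glycolysis genes and 8 of the 13 hypoxia genes, and it was the shallowest library. 11-week replicate 2 was the highest of its age for 12 and 10. Without 8-week replicate 2 the glycolysis median was 0.47, with 20 genes positive, and without 11-week replicate 2 it was 0.20, with 19 positive. Leaving out 8-week replicate 1 left 15 of the 24 positive, at a median of 0.29. The hypoxia median was -0.14 without 8-week replicate 1 and 0.30 without 8-week replicate 2, so its sign rested on single libraries.

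**Figure D2:**
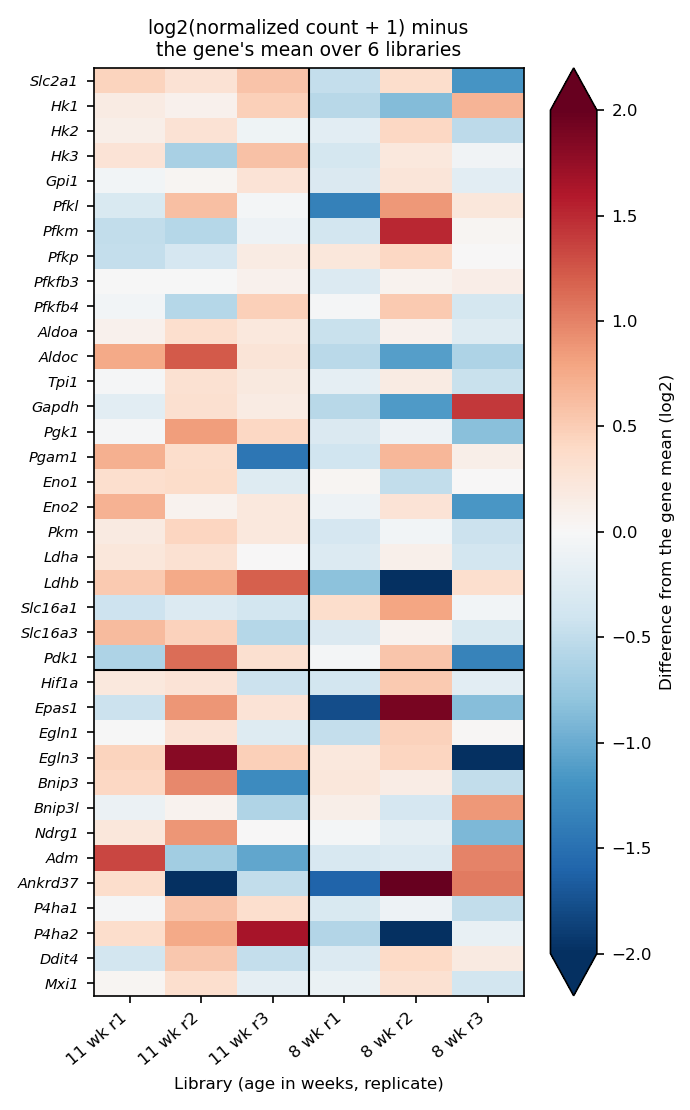
Each row is a gene and each column a library, 11 weeks left of the line and 8 weeks right of it, and the colour is log2(normalized count + 1) minus the gene's mean over the 6 libraries, cut at 2 in either direction. The red column of 8-week replicate 2, with a median of 0.19 for glycolysis and 0.30 for hypoxia, stands out between the blue ones of 8-week replicates 1 and 3.

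Glucose enters macrophages mainly through the transporter encoded by Slc2a1. Its level was 3957.4, 3531.3 and 4301.5 normalized counts at 11 weeks, against 2090.9, 3708.7 and 1285.4 at 8 weeks. The 11-week libraries lay close together, while 8-week replicate 2 reached into their range and the other 8-week libraries lay below it. The log2 fold change was 0.86 ± 0.31 (SE; 95% interval 0.20 to 1.53; unadjusted p = 0.0146 and adjusted p = 0.479, limma), and it was 0.49 without 8-week replicate 3. The coefficient of variation was 9.82% at 11 weeks and 52.3% at 8 weeks (n = 3 each).

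Hexokinases trap glucose in the cell as glucose 6-phosphate, and Hk2 made up most of the family. Hk2 stood at 6331.5, 7122.1 and 5515.1 normalized counts at 11 weeks, against 5054.7, 7796.9 and 4074.9 at 8 weeks. Hk1 stood at 1386.6, 1318.6 and 1728.4 at 11 weeks, against 845.3, 677.4 and 1976.4 at 8 weeks. Hk3, a hexokinase of myeloid cells, stood at 1749.8, 924.4 and 2167.1 at 11 weeks, against 1135.9, 1679.1 and 1380.2 at 8 weeks. All 3 overlapped between the ages, with log2 fold changes of 0.21 ± 0.24 for Hk2, 0.49 ± 0.37 for Hk1 and 0.14 ± 0.33 for Hk3 (SE). Per kilobase of exon, Hk2 held 63.7 ± 10.4% of the family's level at 11 weeks and 63.8 ± 9.54% at 8 weeks (SD, n = 3 each). Hk3 held 26.0 ± 9.46% at 11 weeks and 26.1 ± 2.54% at 8 weeks. The mean make-up of the family was thus close to equal at the 2 ages, while single libraries ranged from 53.0% to 74.6% for Hk2. Gpi1, the isomerase of the next step, stood at 3464.6, 3721.8 and 4376.8 normalized counts at 11 weeks, against 2946.9, 4269.7 and 3109.8 at 8 weeks, with overlap.

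Phosphofructokinase commits the sugar to glycolysis, and of its 3 isozymes 2 had negative log2 fold changes. Pfkp, the platelet type and the highest of the 3, stood at 2119.4, 2339.8 and 3281 normalized counts at 11 weeks, against 3437.3, 3917.8 and 2961.2 at 8 weeks. Pfkl, the liver type, stood at 552.6, 1029.3 and 662.5 at 11 weeks, against 266.6, 1245.5 and 796.9 at 8 weeks. Pfkm, the muscle type, stood at 104.8, 99.8 and 137.8 at 11 weeks, against 115, 422.5 and 152 at 8 weeks. The ages overlapped for each, and the high 8-week values of Pfkl and Pfkm were those of replicate 2. Log2 fold changes were -0.43 ± 0.25 for Pfkp and -0.78 ± 0.67 for Pfkm, and that of Pfkl, 0.17 ± 0.49 (SE), turned to -0.05 with edgeR and -0.04 with DESeq2. Pfkm and Pfkp overlap other genes on the opposite strand with reads of their own, Senp1 and Pitrm1, and no source says that counting used the strand, which leaves their counts uncertain. By length, Pfkp held 56.8 ± 7.52% of the family at 11 weeks and 61.0 ± 15.0% at 8 weeks (SD, n = 3 each).

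The bifunctional enzymes encoded by Pfkfb3 and Pfkfb4 set the level of fructose 2,6-bisphosphate, the main activator of phosphofructokinase. Pfkfb3 was steady, at 8872.1, 8798.6 and 9464.1 normalized counts at 11 weeks, against 7351.5, 9307 and 9759.8 at 8 weeks. Its log2 fold change was 0.05 ± 0.18 (SE; 95% interval -0.34 to 0.44), which is the median of all genes, and it was -0.04 with scaling to library totals. Pfkfb4 stood at 460.7, 319.6 and 663.4 at 11 weeks, against 470.8, 684.4 and 374.9 at 8 weeks. Pfkfb3 held 92.5 ± 2.24% of the pair's level per kilobase at 11 weeks and 91.7 ± 2.39% at 8 weeks (SD, n = 3 each).

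Aldolase splits fructose 1,6-bisphosphate, and here both isozymes were higher at 11 weeks in every library. Aldoc, known as the brain isozyme and as a HIF target, stood at 580.2, 800.4 and 409.7 normalized counts at 11 weeks, against 235.4, 157.9 and 222.1 at 8 weeks. The lowest 11-week library lay well above the highest 8-week one. The means were 596.8 ± 195.9 at 11 weeks and 205.1 ± 41.44 at 8 weeks (SD, n = 3 each), a ratio of 2.91. Its log2 fold change was 1.50 ± 0.47 (SE; 95% interval 0.52 to 2.49; unadjusted p = 0.0053 and adjusted p = 0.356, limma). It was the one gene of the set under an adjusted p of 0.05 in the authors' deposited table (0.011, with a log2 fold change of 1.256 there). There 1.91% of 14234 genes were. DESeq2 on the recovered reads gave an adjusted p of 0.00764 and called 445 of 15875 genes. Both rest on the same counts, and the submitters' notes also list DESeq2. edgeR on the recovered reads gave an adjusted p of 0.34. Leaving out any one library kept the Aldoc log2 fold change between 1.27 and 1.75.

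Aldoa, the main isozyme, stood at 7072.7, 8362.1 and 7664.1 normalized counts at 11 weeks, against 4904.9, 7023.9 and 5532.8 at 8 weeks. The ages did not overlap, but 8-week replicate 2 came within 50 normalized counts of the lowest 11-week library. Its log2 fold change was 0.42 ± 0.20 (SE; unadjusted p = 0.054 and adjusted p = 0.634, limma). Per kilobase, Aldoc made up 6.82, 7.87 and 4.55% of the aldolase level at 11 weeks, against 4.11, 1.97 and 3.46% at 8 weeks. The isozyme share, which no scaling of libraries can move, did not overlap between the ages, although its nearest libraries, at 4.55% and 4.11%, were close. It comes from the same values and adds no separate support.

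**Figure D3:**
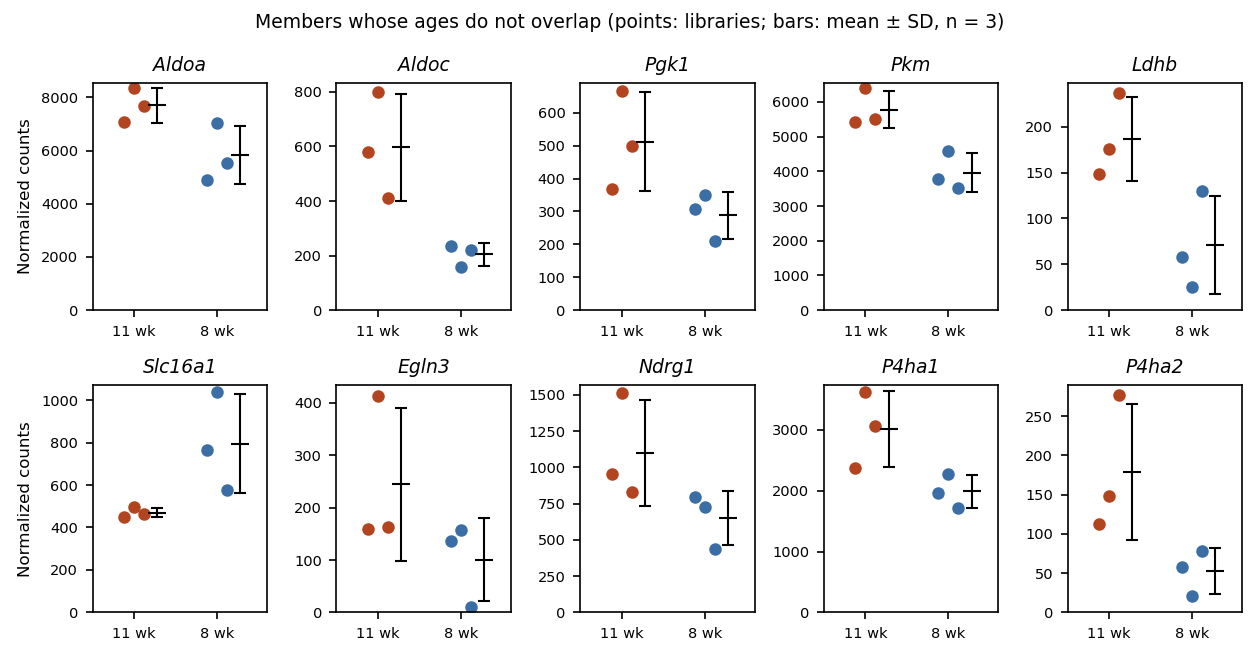
Panels show normalized counts of the 10 genes whose ages do not overlap, with 11 weeks left of 8 weeks, each point a library and each bar the mean ± SD (n = 3). Aldoc stands at 409.7 to 800.4 at 11 weeks and 157.9 to 235.4 at 8 weeks, and Slc16a1 is the gene of the 10 that is lower at 11 weeks.

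The steps after aldolase turn triose phosphates into pyruvate with a gain of ATP. Tpi1 stood at 1960.3, 2461.7 and 2292.2 normalized counts at 11 weeks, against 1765.4, 2238.8 and 1468.2 at 8 weeks. Pgk1, the phosphoglycerate kinase, stood at 367.8, 667.4 and 498.5 at 11 weeks, against 307.6, 349.1 and 209.3 at 8 weeks. The Pgk1 ages did not overlap, and its log2 fold change was 0.81 ± 0.45 (SE; unadjusted p = 0.0909 and adjusted p = 0.695, limma). Pkm, whose product makes pyruvate, stood at 5413, 6394.3 and 5520.6 at 11 weeks, against 3774.3, 4598.1 and 3522.3 at 8 weeks. The gap between the nearest Pkm libraries was wide, and the log2 fold change was 0.55 ± 0.21 (SE; 95% interval 0.11 to 0.99; unadjusted p = 0.0178 and adjusted p = 0.492, limma). The table gives 1 value per gene, so the M1 and M2 forms of pyruvate kinase cannot be told apart. Leaving out any one library kept the Pkm log2 fold change between 0.47 and 0.66.

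Eno1 and Eno2, the ubiquitous and the neuronal enolase, overlapped between the ages. Eno1 stood at 1370, 1399.2 and 905.4 normalized counts at 11 weeks, against 1115.4, 773 and 1086.4 at 8 weeks. Eno2 stood at 625.2, 405.3 and 446.8 at 11 weeks, against 356.7, 466.9 and 170 at 8 weeks. Log2 fold changes were 0.30 ± 0.32 for Eno1 and 0.66 ± 0.48 for Eno2 (SE), and Eno1 held 68.3 ± 6.01% of the pair per kilobase at 11 weeks and 72.4 ± 12.9% at 8 weeks (SD, n = 3 each). Pgam1, the phosphoglycerate mutase, stood at 165.5, 129 and 36.3 at 11 weeks, against 76.7, 160.7 and 109.3 at 8 weeks, and its direction turned with the library left out.

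Gapdh, the glyceraldehyde phosphate dehydrogenase often used as a loading control, was listed at low levels for a core enzyme, with 79.3 ± 14.4 normalized counts per kilobase at 11 weeks and 93.6 ± 90.0 at 8 weeks (SD, n = 3 each). It stood at 262.1, 379 and 341.7 normalized counts at 11 weeks, against 207.8, 138.5 and 814.8 at 8 weeks. The 8-week libraries spread on both sides of the 11-week ones, with replicate 3 the highest of all 6. Of the 50-base stretches of its principal transcript, 82.5% also occur in at least 1 of 222 other annotated genes, 213 of them pseudogenes. The 192 of these pseudogenes in the table summed to 2829.9, 3961.7 and 2700.7 normalized counts at 11 weeks, against 2296.9, 2703.9 and 2650.7 at 8 weeks. In each library they thus held more counts than the Gapdh row itself. The handling of reads that fit several genes is not given in the sources at hand, and the part of shared sequence in the Gapdh level was not tested. Its row also overlaps Iffo1 on the opposite strand.

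The same property varied across the enzymes. Shared 50-base stretches made up 72.2% of Eno1, 68.0% of Pgk1, 41.5% of Pgam1, 34.4% of Pkm, 27.0% of Ldhb, 25.3% of Gpi1, 17.1% of Ldha, 13.9% of Aldoa and 7.5% of Tpi1. For Aldoc, the 3 hexokinases, both monocarboxylate transporters, P4ha1, P4ha2, Egln1 and Egln3 it was 0.0%. In the hypoxia block it was 62.4% for Bnip3, 25.1% for Bnip3l and 14.6% for Ndrg1. Counts of genes with a high share are uncertain, and fold changes of Pgk1 and Pkm are to be read with that. Pfkp also had 17.1% shared, with Pitrm1, while the stretches of Ldha occur in 14 pseudogenes, so the 2 are not alike. Pfkp had 193 ± 46.0 normalized counts per kilobase at 11 weeks and 257 ± 35.7 at 8 weeks. Across all 24 glycolysis genes Spearman's rho between the shared share and the level per kilobase was 0.15. This is a description across genes that share the same libraries, and the part of shared sequence in the levels was not tested.

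**Figure D4:**
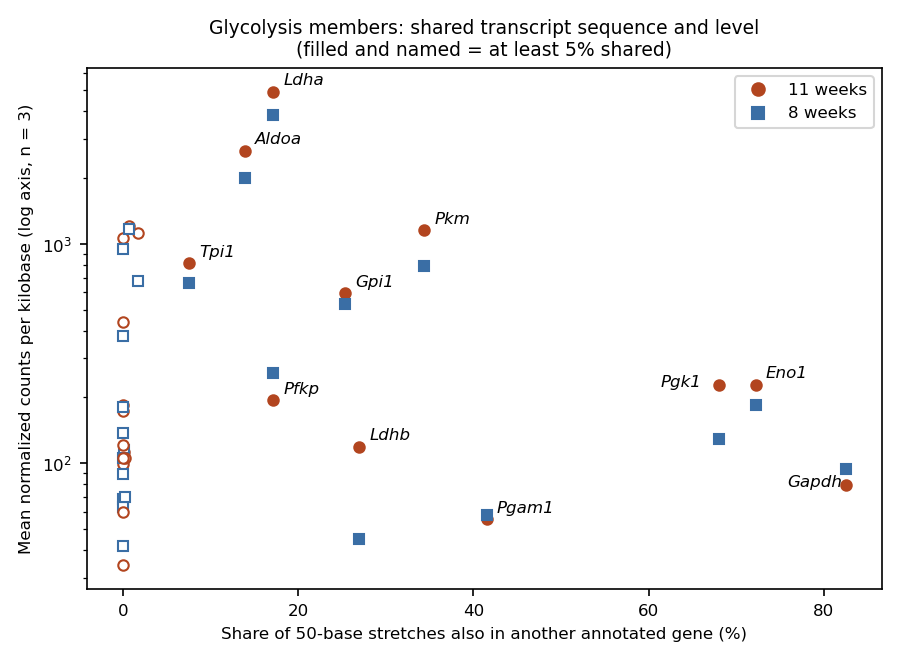
The x axis gives the share of 50-base stretches of a gene's principal transcript that also occur in another annotated gene, and the y axis the mean normalized counts per kilobase (log axis, n = 3) at 11 weeks (circles) and 8 weeks (squares). The 11 genes with at least 5% shared are filled and named: Gapdh at 82.5% has 79.3 per kilobase at 11 weeks, and at 17.1% Ldha has 4920 and Pfkp 193.

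Levels between genes were compared per kilobase of merged exons. These can be far longer than the principal transcript, as for Pfkp (13401 against 4145 bases), Gapdh (4133 against 1420) and Hk1 (8532 against 3851). For Hk2 they were 5969 against 5513 bases, so ranks and isozyme shares depend on the length used. Ldha led the block at both ages, with 4920 ± 526 normalized counts per kilobase at 11 weeks and 3870 ± 688 at 8 weeks, followed by Aldoa with 2650 ± 222 at 11 weeks and 2000 ± 374 at 8 weeks (SD, n = 3 each). Then came Pfkfb3, Pkm, Slc2a1 and Hk2, at 1200, 1150, 1120 and 1060 per kilobase at 11 weeks, which lay within their spread of each other. Pfkm was lowest at 11 weeks, with 34.2 ± 6.18, and Pdk1 lowest at 8 weeks, with 41.8 ± 23.8. In the hypoxia block Hif1a led with 908 ± 227 per kilobase at 11 weeks and 899 ± 315 at 8 weeks, and Ankrd37 and Adm were lowest at 11 weeks with 6.95 ± 6.24 and 7.84 ± 7.98.

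Pyruvate's fate is set by lactate dehydrogenase, by export and by the pyruvate dehydrogenase kinases that keep pyruvate out of mitochondria. Ldha, the form that favours lactate, stood at 16685.8, 17767.5 and 14359.3 normalized counts at 11 weeks, against 11881, 15386 and 11118.6 at 8 weeks. It was the most abundant gene of the set, and only 8-week replicate 2 reached into the 11-week range. The log2 fold change was 0.36 ± 0.18 (SE; unadjusted p = 0.0621 and adjusted p = 0.648, limma). Ldhb, the form that favours pyruvate, stood at 148, 175.4 and 236.6 at 11 weeks, against 58, 24.9 and 129.8 at 8 weeks. The Ldhb ages did not overlap, and the log2 fold change was 1.66 ± 0.78 (SE; 95% interval -0.0011 to 3.31; unadjusted p = 0.0501 and adjusted p = 0.623, limma), and it was 1.07 without 8-week replicate 2. Ldha still held 97.6 ± 0.826% of the pair per kilobase at 11 weeks and 98.7 ± 1.05% at 8 weeks (SD, n = 3 each).

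The log2 fold changes of the 2 lactate transporters in the set had opposite signs, and neither passed. Slc16a1, which encodes MCT1, stood at 450.5, 496 and 465 normalized counts at 11 weeks, against 766.8, 1040.4 and 578.2 at 8 weeks. It was the one gene of the set lower at 11 weeks without overlap, and its 11-week libraries were unusually close, with a mean of 470.5 ± 23.24 against 795.1 ± 232.4 at 8 weeks (SD, n = 3 each). The log2 fold change was -0.72 ± 0.37 (SE; unadjusted p = 0.073 and adjusted p = 0.664, limma). Slc16a3, which encodes MCT4, the exporter typical of strongly glycolytic cells, stood at 830.3, 735.9 and 357.1 at 11 weeks, against 434.2, 561.1 and 433.9 at 8 weeks, with a log2 fold change of 0.35 ± 0.42 (SE; unadjusted p = 0.418 and adjusted p = 0.835, limma). Its 11-week replicate 3 was the lowest of the 6. Per kilobase, MCT4 made up 60.5, 55.3 and 39.0% of the pair at 11 weeks, against 32.0, 31.0 and 38.4% at 8 weeks. The shares did not overlap, although 11-week replicate 3 and 8-week replicate 3 were nearly equal. Among the 7 glycolytic families compared, aldolase and this pair were the ones whose shares separated the ages. With 3 libraries against 3 an exact permutation test cannot go below p = 0.1. The shares come from the same values and add no separate support. Families hold genes of the set only. The pair thus leaves out Slc16a7, another lactate transporter gene, which averaged 1156 normalized counts at 11 weeks and 1959 at 8 weeks. Pdk1 stood at 224.4, 745 and 431.4 normalized counts at 11 weeks, against 333.5, 505.7 and 135.8 at 8 weeks, with overlap.

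**Figure D5:**
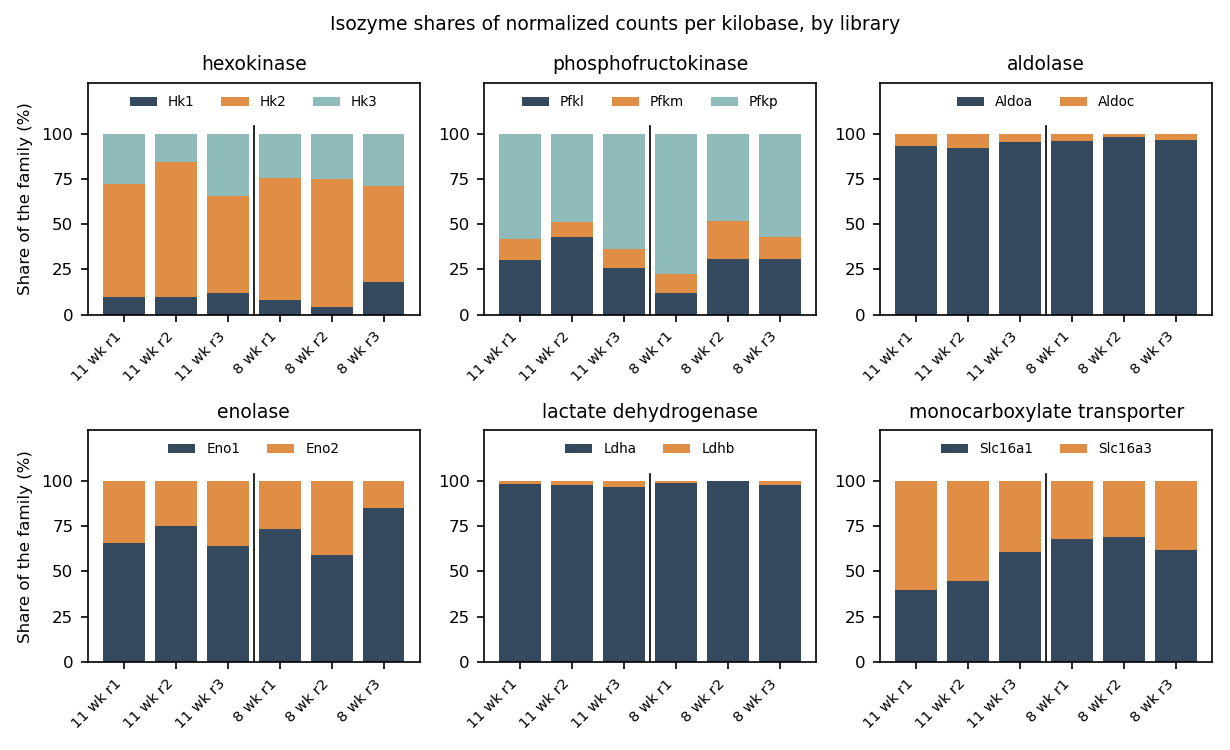
Stacked bars give each isozyme's share of its family's normalized counts per kilobase, in percent, for each library, with 11 weeks left of the line and 8 weeks right of it. Slc16a3 takes 39.0% to 60.5% of its pair at 11 weeks and 31.0% to 38.4% at 8 weeks, while Ldha takes nearly all of its pair in every library.

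Turning to oxygen sensing, the HIF alpha subunits differed by less than their spread. Hif1a stood at 6003.3, 6240 and 3816.6 normalized counts at 11 weeks, against 4023.1, 7431.2 and 4453.3 at 8 weeks, with a log2 fold change of 0.03 ± 0.26 (SE; 95% interval -0.52 to 0.59). It turned to -0.05 with scaling to library totals. HIF is regulated mainly through protein stability, which RNA does not show. Epas1, which encodes HIF-2 alpha, stood at 239.1, 597.8 and 390.6 at 11 weeks, against 93.6, 1215 and 179.4 at 8 weeks. The 8-week libraries of Epas1 ranged wider than the 11-week ones on both sides, with replicate 2 the highest of all 6. Its log2 fold change of 0.48 ± 0.74 (SE) became -0.28 with edgeR and with DESeq2, and 8-week replicate 2 carried most of the 8-week sum.

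Egln1 and Egln3 encode the prolyl hydroxylases PHD2 and PHD3 that mark HIF alpha subunits, and both are themselves HIF targets. Egln1 stood at 1382.9, 1686.5 and 1170.1 normalized counts at 11 weeks, against 1002.2, 1924.3 and 1417.8 at 8 weeks, with a log2 fold change of -0.00096 ± 0.31 (SE). Egln3 stood at 159.1, 413.3 and 162.2 at 11 weeks, against 135.5, 156.5 and 10.2 at 8 weeks. The Egln3 ages did not overlap, but the nearest libraries were almost equal, with 11-week replicate 2 high and 8-week replicate 3 low. It was 1.83 ± 0.94 on the log2 scale (SE; unadjusted p = 0.0693 and adjusted p = 0.658, limma), and 0.59 without 8-week replicate 3.

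P4ha1 and P4ha2 encode the catalytic subunits of the collagen prolyl 4-hydroxylases, which hydroxylate collagen in the endoplasmic reticulum and are induced by hypoxia. P4ha1 stood at 2370.4, 3612 and 3053.5 normalized counts at 11 weeks, against 1968.7, 2266.5 and 1721.9 at 8 weeks. P4ha2 stood at 112.2, 148.2 and 276.4 at 11 weeks, against 58, 20.8 and 78.6 at 8 weeks. Both were higher in every 11-week library than in any 8-week one. Log2 fold changes were 0.59 ± 0.25 for P4ha1 (SE; unadjusted p = 0.0333 and adjusted p = 0.584, limma) and 1.84 ± 0.82 for P4ha2 (SE; unadjusted p = 0.0387 and adjusted p = 0.602, limma). They kept a positive sign in every alternative run, at 0.45 to 0.75 and 1.29 to 2.22 over the libraries left out. P4ha1 held 96.2 ± 1.63% of the pair per kilobase at 11 weeks and 98.2 ± 1.16% at 8 weeks (SD, n = 3 each).

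Ndrg1, a stress and differentiation gene strongly induced by hypoxia, stood at 954.4, 1513.1 and 827.5 normalized counts at 11 weeks, against 793.6, 724.6 and 438.2 at 8 weeks. The ages did not overlap, with 11-week replicate 3 just above 8-week replicate 1, and the log2 fold change was 0.75 ± 0.37 (SE; unadjusted p = 0.059 and adjusted p = 0.643, limma), and it was 0.49 without 11-week replicate 2 and 0.48 without 8-week replicate 3. Bnip3 and Bnip3l encode receptors for the removal of mitochondria. Bnip3 stood at 702.5, 1026.2 and 221.1 at 11 weeks, against 617, 581.9 and 376.7 at 8 weeks, and Bnip3l at 1416, 1612.9 and 1014.2 at 11 weeks, against 1677.2, 1215 and 2811.7 at 8 weeks. Both overlapped, and their log2 fold changes pointed in opposite directions, 0.08 ± 0.51 for Bnip3 and -0.44 ± 0.33 for Bnip3l (SE; unadjusted p = 0.878 and 0.205, adjusted p = 0.974 and 0.794, limma).

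The remaining hypoxia genes showed no common direction. Ankrd37, a HIF target, stood at 20.2, 1 and 10.9 normalized counts at 11 weeks, against 4.5, 227.2 and 33.3 at 8 weeks. One library, 8-week replicate 2, carried most of its counts, and its log2 fold change of -2.14 ± 1.54 (SE; unadjusted p = 0.184 and adjusted p = 0.785, limma) was -0.79 without that library. Ufsp2 and Lrp2bp overlap it on the opposite strand. Adm, which encodes the vessel-dilating peptide adrenomedullin, was near the floor at 27.6, 6 and 4.5 at 11 weeks, against 8, 8.3 and 21.4 at 8 weeks. Ddit4, an inhibitor of mTORC1 under hypoxia and other stress, stood at 263, 493 and 245.6 at 11 weeks, against 281.8, 450.2 and 386.9 at 8 weeks. Mxi1, a MYC antagonist, stood at 1995.3, 2438.6 and 1719.3 at 11 weeks, against 1775.2, 2392.5 and 1505.8 at 8 weeks. The ages overlapped for all 4.

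Marker sums of other cells varied between the 11-week libraries. Epithelial markers summed to 50674.4, 26248.6 and 47015.8 normalized counts in 11-week replicates 1, 2 and 3. Replicate 2, the lowest for them, was the highest 11-week library for Aldoa, Aldoc, Pgk1, Pkm, Slc16a1, Egln3, Ndrg1 and P4ha1. Ldhb and P4ha2 were instead highest in replicate 3, where fibroblast markers also had their highest sum, 3022.6. Neutrophil markers, at 3757.9, 4095.7 and 3466.8, and T cell markers, at 207, 508.1 and 255.6, had their highest 11-week sums in replicate 2. With 3 libraries, the part of any cell type in these values was not tested.

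Other genes of the same pathways were read from 2 further lists. Of 34 more genes of glucose metabolism, 30 were tested, 13 had a positive log2 fold change, the median was -0.05 and none passed limma. The ages did not overlap for 16.7% of the 30, with 1 higher and 4 lower at 11 weeks, against 11.9% of all genes. The 4 with the smallest p were Pdp2, Slc16a7, Bpgm and Pdk4. Pdk4, a pyruvate dehydrogenase kinase linked to fat use, stood at 145.3, 159.3 and 79.8 normalized counts at 11 weeks, against 385.2, 263.2 and 309.2 at 8 weeks. Slc16a7, which encodes the lactate and pyruvate transporter MCT2, stood at 1565, 971.8 and 929.9 at 11 weeks, against 2156.9, 2072.5 and 1648.4 at 8 weeks. Neither overlapped between the ages, so the MCT1 and MCT2 genes were both lower at 11 weeks in every library, with limma adjusted p of 0.664 and 0.487. Pdp2, a pyruvate dehydrogenase phosphatase, averaged 572.9 ± 322.4 at 11 weeks and 2037 ± 1445 at 8 weeks, and Bpgm, which makes 2,3-bisphosphoglycerate, averaged 817.2 ± 295.6 at 11 weeks and 385.5 ± 170.8 at 8 weeks (SD, n = 3 each). Both overlapped.

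Of 40 more hypoxia-linked genes, all were tested, 27 had a positive log2 fold change, against 52.8% of all genes, and the median was 0.33. None passed limma, with a smallest adjusted p of 0.157. The ages did not overlap for 15.0% of the 40, with 5 higher and 1 lower at 11 weeks, against 11.9% of all genes. The 4 with the smallest p are among those 5, and choosing by p favours genes without overlap. Hilpda, a lipid droplet protein induced by hypoxia, stood at 3895.8, 3541.4 and 3495.8 normalized counts at 11 weeks, against 2361, 2107.2 and 1882.4 at 8 weeks. Vegfa, the angiogenic factor, stood at 3914.2, 2942.6 and 2971.9 at 11 weeks, against 1634.4, 2333 and 1069.3 at 8 weeks. The tight Hilpda values gave a log2 fold change of 0.79 ± 0.23 and those of Vegfa 1.02 ± 0.29 (SE; adjusted p = 0.31 for each, limma). Car12, a carbonic anhydrase, stood at 241.8, 67.5 and 155 at 11 weeks, against 11.6, 26.3 and 2.6 at 8 weeks. Loxl2, a collagen cross-linking oxidase, stood at 100.2, 37.3 and 91.5 at 11 weeks and at 0 in all 8-week libraries. Its 11-week mean was 76.7 times a floor of 3 reads over the 8-week group (0.995 normalized counts). That floor allows for counting noise alone, and same-age libraries differed by more, so the ratio is not a lower bound. The Loxl2 log2 fold change was 6.15 ± 1.37 (SE; 95% interval 3.24 to 9.06; adjusted p = 0.157, limma). Car12 and Loxl2 were lowest among the 11-week libraries in replicate 2, as were the epithelial and fibroblast marker sums. In the authors' deposited table Hilpda, Car12 and Loxl2 are listed as higher (adjusted p = 0.007, 0.029 and 0.014), and Vegfa is at 0.098. Angptl4 is listed as lower there (0.017) and was named after its values were seen. These 3 higher and 1 lower are of 38 genes with an adjusted p there, against 1.91% of 14234 genes. With limma the adjusted p was 0.332 for Car12 and 0.422 for Angptl4. Angptl4, an inhibitor of lipoprotein lipase, stood at 438.6, 582.7 and 398.8 at 11 weeks, against 1035.2, 947.6 and 913 at 8 weeks.

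Spread within an age also differed between the blocks. The median coefficient of variation of the glycolysis genes was 20.4% at 11 weeks and 27.0% at 8 weeks, and 16 of 24 varied more at 8 weeks. For the hypoxia genes it was 41.4% at 11 weeks and 35.0% at 8 weeks, with 8 of 13 more variable at 8 weeks. With 3 libraries an age these values carry a large error and were not tested.

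In the deposited table, in GRCm38 coordinates, Aldoc (ENSMUSG00000017390) spans 78322968 to 78327781 of chromosome 11, Aldoa (ENSMUSG00000030695) 126795234 to 126800751 of chromosome 7 and Pkm (ENSMUSG00000032294) 59656368 to 59679375 of chromosome 9. Pgk1 (ENSMUSG00000062070) spans 106187100 to 106203699 of chromosome X, Slc16a1 (ENSMUSG00000032902) 104638668 to 104658462 of chromosome 3 and Ldhb (ENSMUSG00000030246) 142490249 to 142507957 of chromosome 6. P4ha1 (ENSMUSG00000019916) spans 59323296 to 59373304 of chromosome 10, P4ha2 (ENSMUSG00000018906) 54100095 to 54131665 of chromosome 11, Ndrg1 (ENSMUSG00000005125) 66929321 to 66969640 of chromosome 15 and Egln3 (ENSMUSG00000035105) 54178981 to 54203860 of chromosome 12. All 37 genes are annotated as protein-coding, and each value is 1 total per gene.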

How the data were processed

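RNA of sorted macrophages was measured in 6 libraries. Per the labels' protocols, libraries were prepared by a low-input method (Nugen Ovation with Nextera). The submitters' processing notes list GRCm38, STAR 2.4 and DESeq2 1.6 without saying what each did. The deposited table holds 1 signal value per gene and library, a normalized count: by its values, a read count over the library's size factor, with 1 decimal. It also holds the authors' deposited log2 fold change, linear fold ratio, p-value and adjusted p-value.

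Division by what 1 read is worth recovered whole reads (tolerance 0.05 normalized counts) in at least 99.948% of nonzero values of every library. Same-age libraries differed beyond counting noise (chi-square over degrees of freedom 125.61 to 359.14). Since the values are normalized, limma 3.58.1 (trend, robust) was run on log2(value + 1), with age as the only term, over the 21675 genes averaging 1 normalized count or more in either age, with Benjamini-Hochberg adjustment. The added 1 understates changes of low genes. edgeR 4.0.16 and DESeq2 1.42.0 on recovered reads, other scalings, pseudocounts and filters, a replicate block and leaving out each library were the alternatives. edgeR called 14 genes. Exon lengths and shared stretches come from GENCODE M21 (GRCm38), promoters from RefSeq (GRCm38.p6).

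The members and lists were chosen with earlier results of these data known. Named with full values are the 8 glycolysis and 6 hypoxia genes with the smallest p, genes whose ages do not overlap, isozyme families, and 4 genes per further list. Most of the rest are also given. Other tools were Python 3.11.15 with matplotlib 3.10.9, numpy 2.4.6 and pandas 2.3.3, and R 4.3.3. One marker list is not reported here.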

Additional observations from a re-analysis of the deposited data

How the results depend on the processing

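Over all genes limma called 11, against 5 with a pseudocount of 8, 4 with scaling to library totals, 445 with DESeq2, 45 with the replicate block and 3 to 16 with 1 library left out. Same-numbered libraries did not deviate together (correlations -0.023, -0.009 and -0.014 over 10727 genes, against -0.029 to 0.046 for the other pairs), and no library correlated best with its own number. The replicate block called no gene of the 37. Aldoc did not pass the main fit. Among the alternatives it passed with DESeq2 alone (log2 fold change 1.54, adjusted p = 0.00764), which called 445 of 15875 genes and 1 of the 37.

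Of 627 values for the 37 genes under 17 alternatives, 586 kept their direction and side of the threshold, and 25 genes never turned. The 12 that turned lay near 0 or had 1 extreme library, and the cause was not tested. With edgeR and DESeq2, Pfkl was -0.05 and -0.04, Gapdh -0.25 and -0.24, Epas1 -0.28 with both, and Adm 0.0014 and 0.01. With scaling to library totals, Pfkfb3 was -0.04, Hif1a -0.05 and Bnip3 -0.01, and with upper-quartile scaling Egln1 was 0.05. With 1 library left out the ranges were -0.12 to 0.50 for Hk3, -0.46 to 0.65 for Pfkl, -0.08 to 0.13 for Pfkfb3, -0.36 to 0.16 for Pfkfb4, -0.35 to 0.93 for Gapdh, -0.68 to 0.40 for Pgam1, -0.14 to 0.30 for Hif1a, -0.29 to 1.55 for Epas1, -0.24 to 0.23 for Egln1, -0.38 to 0.72 for Bnip3, -0.99 to 0.20 for Adm and -0.02 to 0.31 for Mxi1.

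The glycolysis median was 0.20 to 0.47 with 1 library left out and 0.22 with library totals, and the hypoxia median -0.14 to 0.30 and -0.01. Without length correction the mean 11-week shares were 74.7% for Pfkp, 95% for Pfkfb3 and 98.8% for Ldha. With stretches of 100 bases, chosen after seeing the data, 78.0% of Gapdh, 67.0% of Pgk1, 59.0% of Eno1 and 39.7% of Pgam1 was shared. Bnip3 then had 33.5%, Bnip3l 17.2%, Pfkp 16.0% and Ndrg1 9.8%. The share fell to 9.8% for Pkm, 8.8% for Ldhb, 7.4% for Gpi1, 1.3% for Ldha, 0.8% for Tpi1 and 0.0% for Aldoa. The shares of most genes thus depend on the length of the stretch. Depth limits Adm and Ankrd37, which had fewer than 30 normalized counts in most libraries.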
